A study of Mus musculus with 10 samples.

Results

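In all, 10 mouse genes make up the DNA methylation and TET enzyme genes described here: the DNA methyltransferase genes Dnmt1, Dnmt3a and Dnmt3b, their cofactor Dnmt3l, the adaptors Uhrf1 and Uhrf2, the chromatin remodeller Hells, and the dioxygenase genes Tet1, Tet2 and Tet3. They were chosen by symbol, and all 10 are among the 24453 symbols of the expression table. RNA-seq was carried out on pools of 16 denuded germinal vesicle oocytes, full-grown oocytes arrested in the first meiotic prophase, 1 pool per C57Bl/6J mouse. The mutants were 4 mice with the genotype Setdb1 F/-; ZP3-cre, in which a floxed Setdb1 allele faces a deleted one and the Cre transgene is driven by the Zp3 promoter, which is active in growing oocytes. The controls were 4 Setdb1 F/+; ZP3-cre mice, called Cre-carrying controls below, and 2 Setdb1 F/- mice, called controls without Cre. All 10 mice carry a floxed Setdb1 allele, the mutants share Cre with the first control group and the deleted allele with the second, and the sources used here give no ages. Setdb1 encodes a histone H3 lysine methyltransferase, and the comparison asks what its loss does to the RNA of the oocyte before meiosis resumes.

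In mammals, DNMT3A and DNMT3B place methyl groups on unmethylated cytosines, mostly in CpG dinucleotides, and DNMT1 copies the pattern to the new strand after replication. UHRF1 recognises half-methylated DNA and brings DNMT1 to it, and HELLS opens nucleosomal DNA to the methylation machinery. TET enzymes oxidise methylated cytosine, the first step of its removal. In mouse oocytes the methylation pattern is laid down during growth by DNMT3A together with DNMT3L, which has no catalytic activity of its own. Full-grown oocytes store DNMT1, made from an oocyte-specific first exon, and TET3, the TET enzyme that acts on the paternal genome after fertilization.

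Values are RPKM, which scale reads to transcript length and to the reads of the library, as deposited by the authors. Because they are relative, less of a transcript in each oocyte and more of other RNA cannot be told apart, nor can fewer cells of a type and less RNA per cell. The spacing of low values put the libraries at 45.8e6 to 72.6e6 reads. The share of transcripts listed at 0 was 31.3% to 37.95% in mutants, 26.4% to 29.4% in Cre-carrying controls and 36.6% to 38.4% in controls without Cre, and the SD of log2 values within a group had a median over genes of 0.39 in mutants, 0.19 in Cre-carrying controls and 0.39 in controls without Cre. Library weights were among the alternative settings used below, and the part of these differences in the results was otherwise not tested. The 10 oocyte markers, zona pellucida genes among them, summed to 5961 to 6076 RPKM in mutants and 5843 to 7865 RPKM in controls, and 1 of the 10, Nobox, passed the test, as higher. The 12 granulosa and cumulus markers, with Serpine2 and Nr5a2 highest, summed to 78.1 to 111 RPKM in mutants and 76.1 to 104 RPKM in controls. The 10 blood, immune and endothelial markers summed to 22.1 to 42.8 RPKM in mutants and 29.9 to 46.8 RPKM in controls, with Hba-a1, Hbb-b1 and Cdh5 at 0 in every library, and the 10 theca and stroma markers summed to 0.959 to 3.91 RPKM in mutants and 1.38 to 3.93 RPKM in controls, with Cyp17a1 and Col3a1 at 0. None of the 13 tested markers of these other cell types passed limma's test.

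Setdb1 itself had 4.06, 2.55, 3.32 and 1.31 RPKM in the mutant libraries, against 28.6, 25.7, 25.1 and 52.5 RPKM in Cre-carrying controls and 19.9 and 26.3 RPKM in controls without Cre. The groups did not overlap, and the difference of -3.20 in mean log2(RPKM + 0.5) had an exact two-sided permutation p of 0.0048 over 210 splits, the smallest this design allows. The table gives 1 value per transcript, and the sources used here do not name the deleted part of Setdb1.

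Dnmt1 and Hells fell in mutant oocytes, no gene of the 10 rose past the threshold, and the other 6 tested genes did not pass. The Hells call lay close to the threshold and was lost in 11 of 22 alternative settings, whereas that of Dnmt1 passed in all 22. Tests compared log2(RPKM + 0.5) with limma across the 11338 genes whose mean reached 0.5 RPKM, with Benjamini-Hochberg adjustment and a threshold of 0.05. Tet1 and Uhrf2 lay below that mean and were not tested. Among all tested genes, 5.33% passed in the comparison of mutants with all controls, 3.1% as higher and 2.22% as lower. For the 8 tested genes these counts were 0 higher and 2 lower, and their median log2 change was -0.15, against 0.03 for all tested genes. At an unadjusted p under 0.05, 1 of the 8 was higher and 2 were lower. Of all 11338 tested genes, 2242 had such a p in either direction. Against Cre-carrying controls, where 4.89% of all genes passed (2.76% higher and 2.13% lower), 0 were higher and 2, Dnmt1 and Hells, were lower. Against controls without Cre, where 4.84% of all genes passed (3.25% higher and 1.59% lower), 0 were higher and 1, Dnmt1, was lower. Genes that share a pathway are not independent of each other, and these counts are a description.

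**Figure D1:**
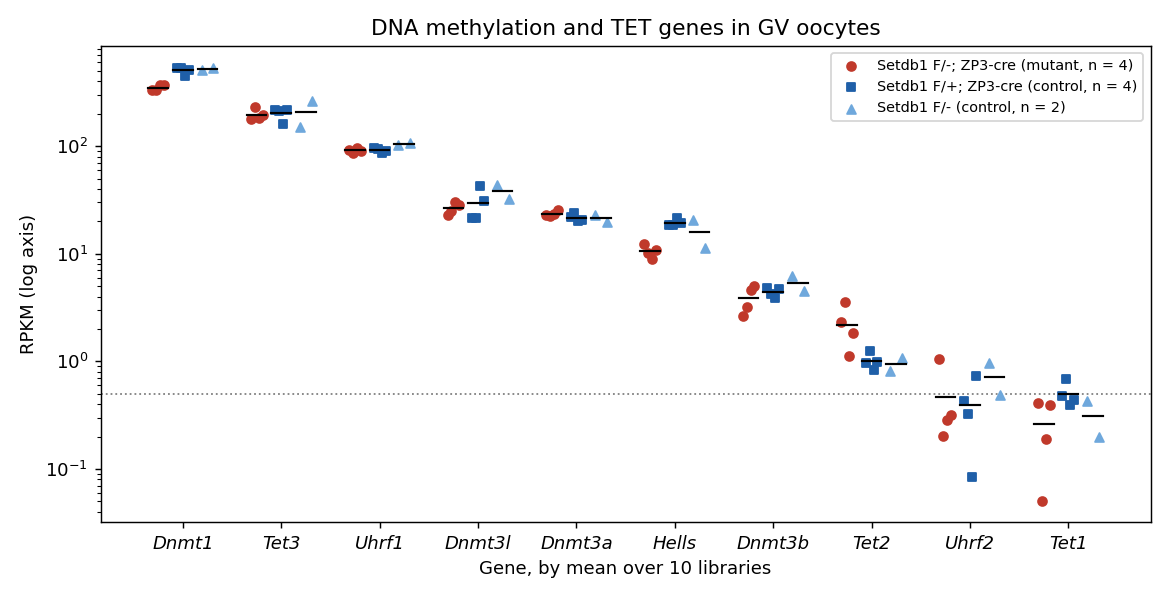
RPKM on a log axis of the 10 DNA methylation and TET genes in each library, with mutants (red circles), Cre-carrying controls (dark squares) and controls without Cre (light triangles), ordered by the mean over 10 libraries. Black lines are group means and the dotted line is the minimum mean for testing, 0.5 RPKM. Dnmt1 mutants lie below every control, and Uhrf2 and Tet1 scatter around or below the dotted line.

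The first 3 places in the order of levels were the same in every library. Averaged over the 10 libraries, Dnmt1 had 449 RPKM, Tet3 201 RPKM and Uhrf1 94.4 RPKM, and Dnmt1 ranked 29 among all genes of the table by this mean. The lowest Dnmt1 value (331 RPKM, a mutant) still exceeded the highest Tet3 value (262 RPKM, a control without Cre). Below them, Dnmt3l (29.996 RPKM), Dnmt3a (22.3 RPKM) and Hells (15.2 RPKM) were neighbours whose values overlapped: Dnmt3l exceeded Dnmt3a in 8 of 10 libraries, and Dnmt3a exceeded Hells in 9 of 10. The order of Dnmt3l and Dnmt3a in mutants depends on the transcript that stands for each gene. Hells lay above Dnmt3b (4.39 RPKM) in all 10 libraries. Dnmt3b exceeded Tet2 (1.47 RPKM) in 9 of 10 libraries, and Uhrf2 (0.487 RPKM) and Tet1 (0.367 RPKM) were not separated, with Uhrf2 above Tet1 in 6 of 10.

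Dnmt1, the maintenance methyltransferase gene, had 331, 332, 373 and 367 RPKM in the mutant libraries. The Cre-carrying controls had 537, 536, 453 and 512 RPKM, and the controls without Cre had 509 and 538 RPKM. Every mutant library was below every control library, a separation seen in the lower direction for 3.56% of all tested genes. The means were 351 ± 22.8 RPKM in mutants and 514 ± 32.7 RPKM in controls (SD, n = 4 and 6), so that mutants held 68.2% of the control mean. The log2 change was -0.55 ± 0.08 (SE), with a 95% interval of -0.72 to -0.38 and an adjusted p of 0.00081 in limma.

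The fall of Dnmt1 was of similar size against each control group taken alone. Against Cre-carrying controls the log2 change was -0.54 (limma adjusted p = 0.0022), and it missed the threshold with a variance estimate that does not follow the expression level (adjusted p = 0.058). Against the 2 controls without Cre it was -0.58 (adjusted p = 0.0065). That second call was lost with no filter on low values, with quantile normalization, with a variance estimate that does not follow the level and with library weights (adjusted p = 0.062, 0.094, 0.081 and 0.22). The change against all controls passed under all 22 alternative settings, with log2 changes of -0.61 to -0.46. All 3 comparisons share the mutant libraries, and the comparison with all controls contains the controls of the other 2.

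**Figure D2:**
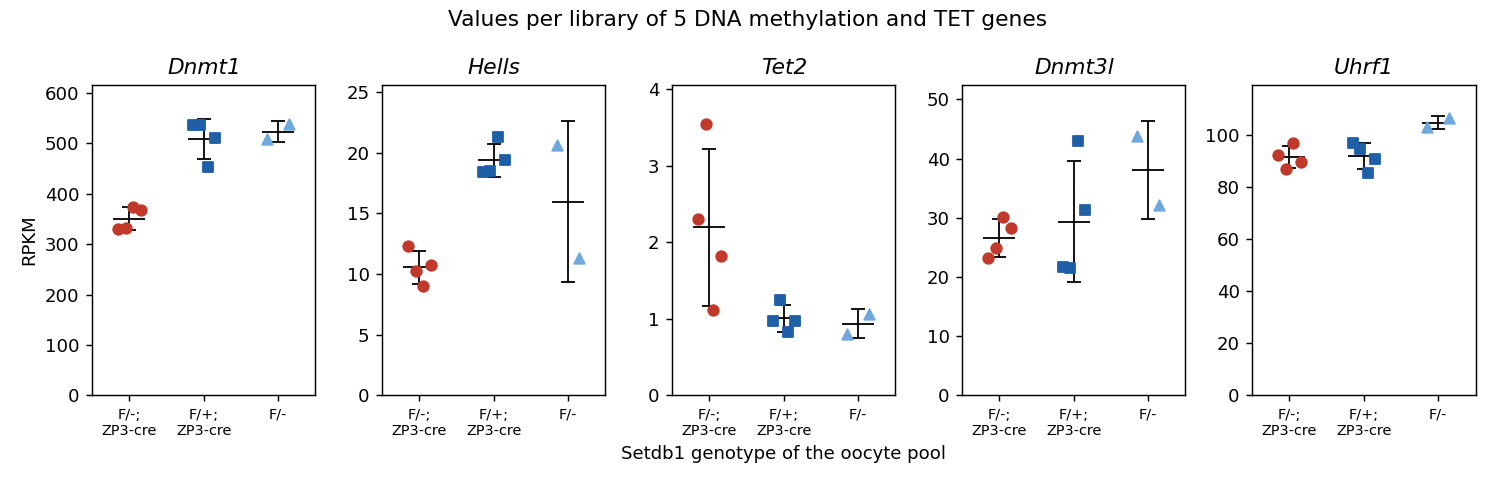
RPKM per library of Dnmt1, Hells, Tet2, Dnmt3l and Uhrf1 by Setdb1 genotype, with mutants on the left of each panel, on axes that start at 0. Horizontal lines are group means and bars are SD (n = 4, 4 and 2). The 4 mutant values of Dnmt1 lie between 331 and 373 RPKM, under all 6 controls, while 1 control without Cre lies among the mutants for Hells at 11.3 RPKM.

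The table lists 5 RefSeq transcripts of Dnmt1, and all 5 fell, with log2 changes of -0.56 to -0.55 and limma adjusted p-values of 0.00052 to 0.00054 over all 17847 tested transcripts, of which 2.33% were lower. Transcripts of a gene share exons and therefore reads, so these rows are not separate evidence and do not tell the start sites apart. Dnmt1 lies on the minus strand of chromosome 9 (GRCm38, 20907209 to 20959888). RefSeq gives it 3 start sites, and the 300 bases around each (250 before and 50 after the start, from the RefSeq annotation of GRCm38.p6) are printed here because Dnmt1 carries the clearest change and its first exons differ between oocytes and other cells. Each window reads 5′ to 3′ on the gene's strand, with CpG dinucleotides in capitals.
Dnmt1 upstream start, chr9:20959839-20960138, minus strand: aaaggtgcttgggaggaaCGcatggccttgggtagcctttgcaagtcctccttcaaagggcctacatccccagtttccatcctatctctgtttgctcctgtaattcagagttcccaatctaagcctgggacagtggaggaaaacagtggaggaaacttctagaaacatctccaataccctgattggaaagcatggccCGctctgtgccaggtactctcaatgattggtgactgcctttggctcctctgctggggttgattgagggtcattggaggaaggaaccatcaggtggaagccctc
Dnmt1 middle start, chr9:20952930-20953229, minus strand: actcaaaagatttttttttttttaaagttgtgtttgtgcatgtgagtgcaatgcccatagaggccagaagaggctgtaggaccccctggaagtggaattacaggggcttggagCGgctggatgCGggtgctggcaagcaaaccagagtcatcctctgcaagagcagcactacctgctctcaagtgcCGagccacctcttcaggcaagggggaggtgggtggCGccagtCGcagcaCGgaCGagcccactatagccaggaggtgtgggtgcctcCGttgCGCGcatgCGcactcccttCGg
Dnmt1 downstream start, chr9:20952574-20952873, minus strand: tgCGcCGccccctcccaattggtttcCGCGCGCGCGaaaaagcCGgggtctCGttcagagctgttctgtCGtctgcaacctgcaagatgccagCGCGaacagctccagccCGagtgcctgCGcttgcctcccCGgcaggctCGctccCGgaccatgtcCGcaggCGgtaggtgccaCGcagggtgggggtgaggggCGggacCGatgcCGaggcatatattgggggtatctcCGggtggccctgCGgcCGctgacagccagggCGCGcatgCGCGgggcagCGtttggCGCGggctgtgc
The upstream window, at the start of the transcript whose values are given above, holds 2 CpG dinucleotides and a GC content of 51.3%. The middle window holds 12 CpG and the downstream window 33 CpG with a GC content of 69.7%. Over 32851 RefSeq windows of the same length the median was 7 CpG (quartiles 3 and 20) and the median GC content 52.7%. The windows thus run, along the gene, from CpG-poor to CpG-rich, and the values in the table do not show which start was used.

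Candidates were 4037 tested genes averaging 10 RPKM or more, with predicted-gene (Gm), Rik, Mir and Snor symbols passed over. Those named next were among the 5 whose profile over the 10 libraries, centred on each gene's mean, lay closest to that of Dnmt1. The root mean square difference on the log2 scale was 0.105 for Tjp1, a tight junction scaffold gene, 0.106 for D10Wsu102e, 0.118 for Myh11, a smooth muscle myosin heavy chain gene, and 0.125 for Evi5. The median over all candidates was 0.40. Of the other 9 DNA methylation and TET genes, Uhrf1 was nearest to Dnmt1 at 0.247 and Tet2 farthest at 0.748. Hells, which passed as lower, lay at 0.319, farther than Uhrf1, which did not pass. A small difference can come from values that vary little, and does not show a shared change. Tjp1, D10Wsu102e, Myh11 and Evi5 were picked for being closest, so their smaller differences are not a finding about these 9 genes.

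Hells, which encodes the SNF2-family remodeller also called LSH, had 12.3, 10.2, 8.99 and 10.7 RPKM in the mutant libraries. The Cre-carrying controls had 18.4, 18.5, 21.3 and 19.4 RPKM, and the controls without Cre had 20.6 and 11.3 RPKM. Replicate 2 of the controls without Cre lay among the mutants, and only 3 of 4 mutant libraries were below every control. The means were 10.6 ± 1.37 RPKM in mutants and 18.3 ± 3.60 RPKM in controls (SD, n = 4 and 6), 57.9% of the control mean, with a log2 change of -0.74 ± 0.18 (SE, 95% interval -1.14 to -0.35) and a limma adjusted p of 0.031. Against Cre-carrying controls the log2 change was -0.85 (adjusted p = 0.023), a call lost with no filter on low values (adjusted p = 0.066) and without mutant replicate 3 or any 1 of the 4 Cre-carrying controls (adjusted p = 0.061 to 0.078). Against controls without Cre it was -0.52 (adjusted p = 0.21), and without replicate 2 of that group, which left 1 such control, it was -0.94 (adjusted p = 0.036).

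The Hells call against all controls lies close to the threshold. It was lost when any 1 of 8 of the 10 libraries was left out (limma adjusted p = 0.051 to 0.090), all except mutant replicate 1 and replicate 2 of the controls without Cre, while the log2 change stayed between -0.75 and -0.67 in those 8 fits. It was also lost with no filter on low values (adjusted p = 0.097) and with a variance estimate that does not follow the level (adjusted p = 0.054). Of all 22 alternative settings the call passed in 11 and was lost in 11. The lowest adjusted p, 0.00095, came with library weights.

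Uhrf1, the adaptor that brings DNMT1 to half-methylated DNA, had 92.3, 87.1, 97.0 and 89.7 RPKM in mutants, against 96.9, 94.6, 85.7 and 90.8 RPKM in Cre-carrying controls and 103 and 107 RPKM in controls without Cre. The mutant values overlapped those of the Cre-carrying controls and lay below both controls without Cre. The log2 change against all controls was -0.07, with a 95% interval of -0.27 to 0.13 (limma adjusted p = 0.71), and against controls without Cre it was -0.20 with an interval of -0.42 to 0.03. The interval against all controls does not reach the change of -0.55 measured for Dnmt1. Within libraries, the ratio of Dnmt1 to Uhrf1 RPKM was 3.83 ± 0.210 in mutants (3.58 to 4.09) and 5.35 ± 0.313 in controls (4.94 to 5.67), without overlap. Dnmt1 values alone were already without overlap, so this ratio adds no separate evidence, and the difference between the genes was not tested.

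Uhrf2, a relative of Uhrf1 that binds hydroxymethylated DNA, was near the limit of testing. It had 1.05, 0.201, 0.285 and 0.318 RPKM in mutants, against 0.432, 0.323, 0.0850 and 0.730 RPKM in Cre-carrying controls and 0.960 and 0.482 RPKM in controls without Cre. The groups overlapped over nearly their whole range, and these values correspond to about 17 to 228 reads per library.

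The start-site windows of Hells and of the downstream start of Uhrf1 are given beside those of Dnmt1 because all 3 genes act in maintenance of methylation and these, with the downstream Dnmt1 window, are the windows of the 10 genes with a match to E2F-type letters. E2F factors drive genes of the cell cycle, DNA replication genes among them.
Hells start, chr19:38930740-38931039, plus strand: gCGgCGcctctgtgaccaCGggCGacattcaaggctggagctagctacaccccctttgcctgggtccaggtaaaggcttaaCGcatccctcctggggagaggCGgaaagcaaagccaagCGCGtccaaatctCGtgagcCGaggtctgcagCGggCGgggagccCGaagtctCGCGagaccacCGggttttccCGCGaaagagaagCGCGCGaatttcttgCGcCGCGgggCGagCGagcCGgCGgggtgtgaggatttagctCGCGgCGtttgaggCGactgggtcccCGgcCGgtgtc
Uhrf1 downstream start, chr17:56304063-56304362, plus strand: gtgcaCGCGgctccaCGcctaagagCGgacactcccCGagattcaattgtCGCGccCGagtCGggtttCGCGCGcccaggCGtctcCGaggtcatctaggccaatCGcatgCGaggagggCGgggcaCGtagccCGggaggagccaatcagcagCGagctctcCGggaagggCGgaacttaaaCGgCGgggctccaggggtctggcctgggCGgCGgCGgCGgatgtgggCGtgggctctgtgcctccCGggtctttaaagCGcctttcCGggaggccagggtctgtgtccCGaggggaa
The Hells window holds 34 CpG and the Uhrf1 window 33 CpG. The letters TTTGGCGC, TTTCCCGC, TTTCGCGC and TTTGCCGC were searched on both strands. They occur in 2.26% of all 32851 RefSeq windows and in 3 of the 17 windows of the 10 genes. Hells has TTTCCCGC at window position 189, Uhrf1 has TTTCGCGC at position 66, and the downstream Dnmt1 window has GCGCGAAA, the same letters on the other strand, at position 32 and TTTGGCGC at position 284. Hells and Dnmt1 passed the test as lower and Uhrf1 did not. The Dnmt1 matches lie only in the downstream window, and the values do not show which start was used. Any link between these letters and the calls was not tested. The letters TAATTG and TAATTA, as bound by NOBOX-type homeodomain factors, are in 12.4% of all windows and in 0 of the 17, and the E-box CACGTG is in 7.15% of all windows and in 1 window each of Dnmt3l and Dnmt3a. Every E2F-type run holds a CpG, while TAATTG and TAATTA are mostly A and T. The shares over all windows were not matched for CpG number or GC content. A match is a run of letters and not a bound site.

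Dnmt3a, the methyltransferase that lays down the oocyte pattern, had 22.9, 22.6, 23.5 and 25.4 RPKM in mutants, against 21.9, 23.7, 20.1 and 20.6 RPKM in Cre-carrying controls and 23.0 and 19.6 RPKM in controls without Cre. The groups overlapped, and the spread within each was small. Its log2 change was 0.13, with a 95% interval of -0.12 to 0.39 (limma adjusted p = 0.57). On the opposite strand lies Dnmt3aos, which had at most 1.05 RPKM in mutants and 1.35 RPKM in controls, and the library kit does not mark strand.

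Dnmt3l, the cofactor of DNMT3A in germ cells, had 23.2, 24.9, 30.1 and 28.3 RPKM in mutants, against 21.7, 21.5, 43.0 and 31.3 RPKM in Cre-carrying controls and 43.9 and 32.2 RPKM in controls without Cre. Both controls without Cre were above all mutants, whereas 2 Cre-carrying controls were below all of them. The log2 change was -0.22 (95% interval -0.66 to 0.22, limma adjusted p = 0.59), and -0.50 against controls without Cre (adjusted p = 0.29). The Dnmt3l to Dnmt3a ratio was 1.13 ± 0.112 in mutants and 1.52 ± 0.490 in controls, a difference smaller than the SD among controls. It uses the transcript of each gene with the highest mean. Mutant means ran from 20.4 to 26.6 RPKM over 6 transcripts of Dnmt3l and from 21.7 to 23.6 RPKM over 3 of Dnmt3a. Control means ran from 24.8 to 32.3 RPKM for Dnmt3l and from 19.8 to 21.5 RPKM for Dnmt3a. Which gene is higher in mutants therefore depends on the transcript. Aire overlaps Dnmt3l on the opposite strand and had 1.88 to 7.95 RPKM in mutants and 1.44 to 4.66 RPKM in controls.

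Dnmt3b, the de novo enzyme best known from the early embryo, had 2.67, 3.23, 4.63 and 5.02 RPKM in mutants, against 4.84, 4.21, 3.86 and 4.69 RPKM in Cre-carrying controls and 6.24 and 4.49 RPKM in controls without Cre. Mutant replicates 1 and 2 lay below every control and the other 2 among them. Dnmt3b had a log2 change of -0.27, with a 95% interval of -0.77 to 0.23 (limma adjusted p = 0.56). Dnmt1 made up 86.7 ± 0.395% of the summed RPKM of the 4 DNMT genes in mutants and 89.7 ± 2.01% in controls, so it remained by far the most abundant transcript of the family.

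Tet3, the maternal TET enzyme, had 179, 231, 182 and 194 RPKM in mutants, against 218, 214, 160 and 216 RPKM in Cre-carrying controls and 152 and 262 RPKM in controls without Cre. The 2 controls without Cre spanned the values of all other libraries. Tet3 had a log2 change of -0.03, with a 95% interval of -0.34 to 0.28 (limma adjusted p = 0.93). Tet3 supplied 98.8 ± 0.385% of the summed TET RPKM in mutants and 99.3 ± 0.146% in controls. The ratio of Dnmt1 to Tet3 was 1.81 ± 0.262 in mutants and 2.60 ± 0.446 in controls.

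Tet2, a TET enzyme best known from blood cells, was higher on average in mutants but did not pass. It had 2.30, 3.55, 1.11 and 1.82 RPKM in mutants, against 0.968, 1.25, 0.827 and 0.978 RPKM in Cre-carrying controls and 0.808 and 1.07 RPKM in controls without Cre. Mutant replicates 1, 2 and 4 lay above every control, and replicate 3 lay among them. The means were 2.20 ± 1.03 RPKM in mutants and 0.983 ± 0.163 RPKM in controls (SD, n = 4 and 6), with a log2 change of 0.79 ± 0.30 (SE, 95% interval 0.15 to 1.43) and a limma adjusted p of 0.15. The values differed more among mutants than among controls. The log2 change of this low gene depended on the pseudocount, from 0.46 with 2 RPKM to 0.99 with 0.1 RPKM, and Tet2 passed under none of the alternatives in which it was tested.

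Tet1, the TET enzyme of primordial germ cells and embryonic stem cells, was low in every library. It had 0.412, 0.0509, 0.189 and 0.398 RPKM in mutants, against 0.472, 0.691, 0.395 and 0.437 RPKM in Cre-carrying controls and 0.430 and 0.197 RPKM in controls without Cre. The groups overlapped, the values correspond to about 40 to 642 reads per library on a long transcript, and no test was made at the stated minimum. Fitted with no such minimum, the log2 change was -0.31 with a limma adjusted p of 0.64.

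**Figure D3:**
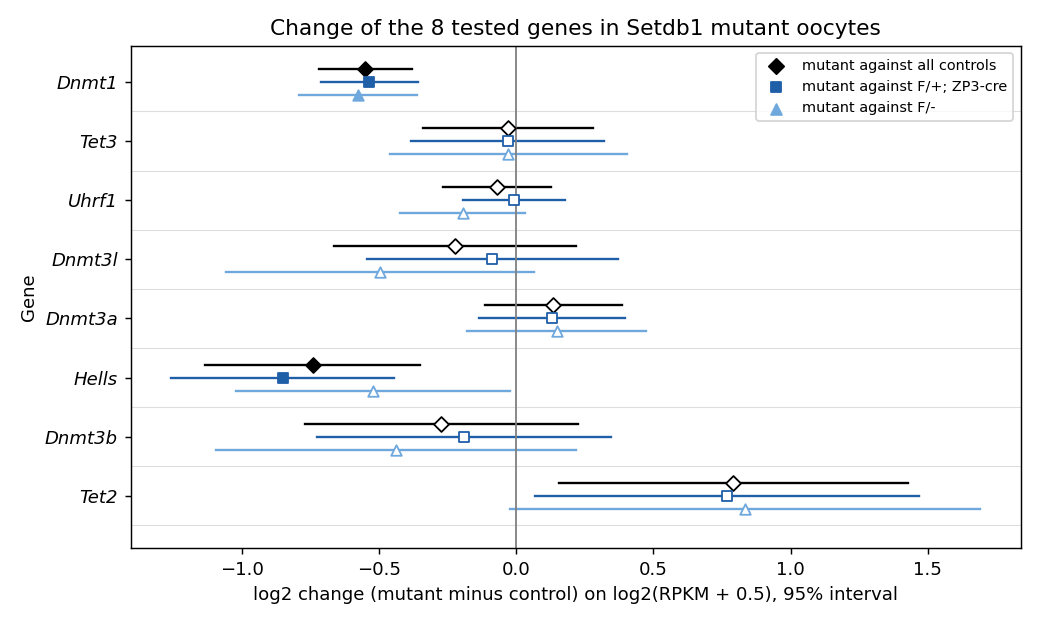
Log2 change, mutant minus control on the log2(RPKM + 0.5) scale, of the 8 tested genes against all controls (black diamonds), Cre-carrying controls (dark squares) and controls without Cre (light triangles), with 95% intervals. Filled symbols passed a limma adjusted p of 0.05. Only Dnmt1 is filled in all 3 comparisons, and Tet2, at 0.79 against all controls, has the widest interval.

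No difference in these genes passed between the 2 control groups. Between Cre-carrying controls and controls without Cre, limma called 0 of the 8 tested genes, while 0.0706% of all genes passed. At an unadjusted p under 0.05 there were 0 of the 8, against 1584 of all 11338 tested genes. With so few genes passing at all, 0 calls among 8 say little about these genes. The largest of these log2 differences were -0.41 for Dnmt3l (adjusted p = 0.51) and 0.33 for Hells (adjusted p = 0.55), and for Dnmt1 it was -0.04 with a 95% interval of -0.26 to 0.18. The interval for Hells, -0.17 to 0.83, is wider.

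Genes that work with these enzymes mostly did not pass. Of 65 listed partner genes in the table, 52 were tested against all controls, of which 2 rose, none fell and 50 did not pass, where 6 were higher and 3 lower at an unadjusted p under 0.05. Among all tested genes 3.1% passed as higher and 2.22% as lower, and 2242 of 11338 had an unadjusted p under 0.05, so that the partner counts lie near or below those of all genes. Their median log2 change was -0.0046, against 0.03 for all tested genes. Setd2, which trimethylates the histone H3 residue that DNMT3A recognises in transcribed regions, had 42.2, 43.6, 47.1 and 41.9 RPKM in mutants, against 30.9, 30.7, 30.7 and 29.8 RPKM in Cre-carrying controls and 28.3 and 23.9 RPKM in controls without Cre. Every mutant was above every control, as was the case for 4.62% of all tested genes. The log2 change was 0.58 ± 0.11 (SE, limma adjusted p = 0.0077), and Setd2 also passed against each control group (log2 changes 0.51 and 0.74, adjusted p = 0.018 and 0.0077).

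Smug1, a uracil DNA glycosylase of base excision repair, had 33.4, 28.1, 25.8 and 27.4 RPKM in mutants, against 19.8, 20.2, 19.3 and 20.8 RPKM in Cre-carrying controls and 21.3 and 16.5 RPKM in controls without Cre. Every mutant was above every control, a separation seen in the higher direction for 4.62% of all tested genes. Its log2 change was 0.53 ± 0.13 (SE, limma adjusted p = 0.025), and it did not pass against either control group alone (adjusted p = 0.052 against Cre-carrying controls and 0.059 against controls without Cre). The call against all controls was lost without mutant replicate 1 or without replicate 1, 2 or 4 of the Cre-carrying controls (adjusted p = 0.052 to 0.084). It was also lost with quantile normalization (adjusted p = 0.067) and with a variance estimate that does not follow the level (adjusted p = 0.055).

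Within the groups of partners, 1 of 11 tested base excision repair and deamination genes (Smug1) and 1 of 7 genes of histone marks that direct methylation in oocytes (Setd2) rose, where 3.1% of all tested genes did, and 1 call in a group of this size does not describe the group. None passed among 6 readers of methylated DNA, 7 TET partners, 7 maintenance partners, 4 genes that protect maternal methylation and 10 genes of the S-adenosylmethionine cycle. The abundant protective factors Dppa3, which shields maternal methylation from TET3 in the zygote, and Zfp57, which holds methylation at imprinted loci, did not pass. Dppa3 had 688 ± 52.8 RPKM in mutants and 733 ± 139 RPKM in controls (limma adjusted p = 0.78). Zfp57 had 796 ± 22.1 RPKM in mutants and 765 ± 59.9 RPKM in controls (adjusted p = 0.71). Kdm1b, a histone demethylase needed for maternal imprints, had 55.2 ± 8.87 RPKM in mutants and 38.5 ± 10.2 RPKM in controls and did not pass (limma adjusted p = 0.14), and neither did Nsd1, with 44.0 ± 7.79 RPKM in mutants and 40.4 ± 3.51 RPKM in controls.

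Among repair genes, Ung had 68.5 ± 3.87 RPKM in mutants and 58.1 ± 11.99 RPKM in controls, and Neil3 had 72.5 ± 7.79 RPKM in mutants and 71.8 ± 10.7 RPKM in controls. Tdg, the glycosylase that removes oxidised methylcytosine, is listed at 0 in all 10 libraries, which in a table without counts can be a failed estimate. Of the readers, Mbd3 had 13.8 ± 2.48 RPKM in mutants and 9.73 ± 0.600 RPKM in controls (limma adjusted p = 0.11), and Zbtb33 had 6.78 ± 1.34 RPKM in mutants and 8.75 ± 0.660 RPKM in controls (adjusted p = 0.28). Among TET partners, both genes named here encode ubiquitin ligase subunits. Ddb1 had 55.1 ± 4.94 RPKM in mutants and 66.9 ± 6.88 RPKM in controls (adjusted p = 0.17). Cul4b had 41.5 ± 6.45 RPKM in mutants and 49.8 ± 1.49 RPKM in controls (adjusted p = 0.19). All 4 mutants were above every control for Mbd3, and below every control for Zbtb33 and for Cul4b. Such separation was seen for 4.62% of all tested genes as higher and 3.56% as lower.

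The 2 most abundant maintenance partners did not pass either. Usp7, a deubiquitinase that binds DNMT1 and UHRF1, had 50.0 ± 6.79 RPKM in mutants and 59.1 ± 4.93 RPKM in controls (limma adjusted p = 0.26), and Cdca7l, a relative of the HELLS activator Cdca7, had 35.0 ± 9.45 RPKM in mutants and 30.1 ± 7.28 RPKM in controls (adjusted p = 0.62). In the S-adenosylmethionine cycle, which supplies the methyl donor, Mat2b had 247 ± 27.2 RPKM in mutants and 285 ± 64.6 RPKM in controls (adjusted p = 0.54), and Shmt2 had 20.2 ± 3.24 RPKM in mutants and 16.1 ± 6.75 RPKM in controls (adjusted p = 0.39).

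**Figure D4:**
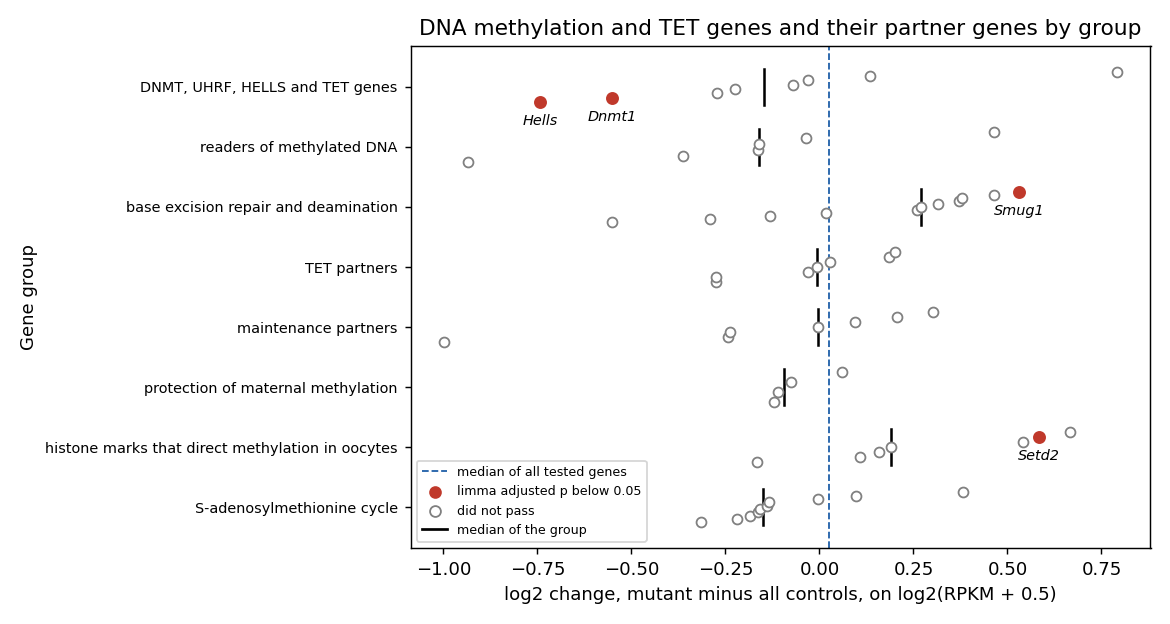
Log2 change, mutant minus all controls on the log2(RPKM + 0.5) scale, of each tested DNA methylation or TET gene and of 52 tested partner genes in 7 groups, with black bars for group medians and a dashed line for the median of all tested genes. Filled red points passed a limma adjusted p of 0.05. Hells and Dnmt1 are filled on the left and Smug1 and Setd2 on the right, while Cdca7 (-0.998) and Mbd1 (-0.93) lie farther left, and Tet2 (0.79) and Ehmt1 (0.67) farther right, without passing.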

How the data were processed

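RNA was measured in germinal vesicle oocytes of 10 mice, 1 library per mouse. Per the labels' protocols, the RNA (RNeasy Micro) was turned into cDNA and amplified with the NuGen Ovation kit, and sequencing libraries were prepared with TruSeq DNA reagents, so strand is not marked. Amplifying RNA from few cells widens the spread between libraries and can favour some transcript lengths and GC contents. The deposited values are RPKM of 34768 RefSeq transcripts. Per the submitters' processing notes, bcl2fastq 1.8.3, STAR and mm10 were used. The sources used here do not name the counting tool. If reads matching several places were dropped, genes with near-identical copies are listed too low.

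RPKM are not counts, so limma 3.58.1 in R 4.3.3 (empirical Bayes with trend) was applied to log2(RPKM + 0.5), a scale that understates changes of low genes. The transcript with the highest mean stood for each symbol. Mutants against all controls was fitted with 2 levels, as the series' design text puts both control genotypes in 1 control group. Each control group was compared in a model of 3 groups sharing 1 estimate of the spread. All adjusted p-values are from limma over all tested genes, Setdb1 apart. Read totals were estimated from the steps between low values, using transcript lengths known for 97.7% of rows, and 69.9% to 73.4% of low values then lay within 0.1 of a whole read. Read numbers are therefore approximate, and amplified reads are not independent molecules. In the shallowest library 10 reads on a 2 kb transcript correspond to 0.109 RPKM.

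On simulated data with 11338 genes the model for mutants against all controls recovered 50% of genes given a log2 change of 1 and 92% of genes given a log2 change of 2. The 10 genes and the partner and marker lists were chosen with earlier results of these data known. Named besides the 10 genes are Setdb1, partner genes past the threshold in any comparison of mutants, the 2 most abundant partners of each group, genes among the 5 most like Dnmt1 (1 of them is not reported here), and the 2 highest markers of each list where useful. Window sequences are from RefSeq. Gene positions are from the GRCm38 annotation, and motif matches were read on both strands.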

Additional observations from a re-analysis of the deposited data

Results flagged for a closer look

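In 6 of 54 groups of 4 libraries, over 27 genes, the highest or lowest library stood apart from the other 3 by Dixon's criterion, where chance gives about 1 in 20. Uhrf2 had 1.05 RPKM in mutant replicate 1, above 0.201 to 0.318 RPKM in the other mutants. Replicate 3 of the Cre-carrying controls stood apart for 4 genes. It had 160 RPKM of Tet3, below 214 to 218 RPKM in the rest of its group, and 35.7 RPKM of Nsd1, below 42.6 to 43.9 RPKM. It had 375 RPKM of Mat2b, above 225 to 236 RPKM, and 14.9 RPKM of Shmt2, above 11.9 to 12.2 RPKM. Setdb1 had 52.5 RPKM in replicate 4 of the Cre-carrying controls, above 25.1 to 28.6 RPKM in the rest of that group.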

How the results depend on the processing

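Of the 10 genes, 2 were lower than in all controls. This count was 1 with no filter on low values, with no trend and with the replicate block, and 1 to 2 without each replicate in turn. Dnmt1 passed in all 22 alternatives and Hells in 11. Against Cre-carrying controls the count of 2 was 1 with no filter and with no trend, and 1 to 2 without each replicate. Against controls without Cre the count of 1 was 0 with no filter, quantile normalization, no trend and array weights, and 1 to 2 without each replicate. The 2 higher partner genes became 1 with quantile normalization, no trend and the replicate block, 4 with array weights, which also gave 1 lower partner, and 1 to 3 without each replicate. Over all genes, calls ranged from 221 to 807 higher and 119 to 581 lower, against 352 and 252. The cause of these shifts was not tested.

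Small changes that passed no test turned sign. Neil3 was -0.0413 with median centring, -0.0576 with quantile normalization, -0.0188 with array weights and -0.00317 with the replicate block. Zfp57 was -0.000505 with median centring. With array weights Nsd1 was -0.0422 and Dnmt3l 0.0535. Between the control groups Dnmt1 was 0.0406 with quantile normalization and 0.000786 with array weights. Without each replicate in turn the ranges were -0.0537 to 0.0872 for Neil3, -0.00124 to 0.194 for Nsd1, -0.112 to 0.0467 for Tet3 and -0.120 to 0.0144 for Dppa3, and between the control groups -0.0812 to 0.0144 for Dnmt1 and -0.0904 to 0.750 for Hells.

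No pairing by replicate number was visible: deviations from group means correlated at -0.046 to 0.031 for 8 pairs with the same number and at -0.081 to 0.081 for 24 others. The 2 controls without Cre deviate by equal and opposite amounts, so their correlations mirror each other in sign. Whether libraries were handled together was not tested. With the replicate block, adjusted p was 0.0072 for Dnmt1, 0.057 for Hells, 0.037 for Setd2 and 0.062 for Smug1.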
